A study of Mus musculus with 2 samples.

Results

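Messenger RNA of 10 genes for the uptake of fatty acids and for lipid droplets was followed across the cell classes of mouse bone marrow. The genes were taken by name from a fixed list, 10 of the 24014 gene symbols in the 2 deposited libraries, by a rule that uses no measured value, though the list was drawn up with earlier results of these data in view. They comprise the receptors Cd36 and Vldlr, the lipase Lpl, the binding proteins Fabp4 and Fabp5, the acyltransferase Dgat1, the droplet coat proteins Plin2 and Plin3, the lipase Pnpla2 and its inhibitor Hilpda. Each had at least 20 unique molecular identifiers (UMIs, 1 per captured transcript) over both libraries, so all 10 were described.

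Cells take up fatty acids that lipoprotein lipase releases from circulating triglyceride, with CD36 and the VLDL receptor at the cell surface. Fatty acid binding proteins carry them in the cytosol, diacylglycerol acyltransferase joins them into triglyceride, and perilipins coat the droplets that store it. Adipose triglyceride lipase, the product of Pnpla2, starts the breakdown of stored triglyceride, and Hilpda restrains it. Several of these genes, Cd36, Plin2, Fabp4 and Lpl among them, are known targets of the PPAR nuclear receptors, which fatty acids activate, and Hilpda is also known to be induced by hypoxia.

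The marrow came from male mice, described as young, whose strain is given as C57B/6 and whose genotype is given as Wild type. The group called ND ate normal chow and the other, called HFD, a diet with 60% fat, both for 16 weeks. Each diet was 1 BD Rhapsody single-cell library, and the labels name no number of animals behind a library, no pooling of animals and no sort. No comparison between the diets therefore has a replicate, no p-value is given, and every interval covers counting error only. UMIs of 1 gene also cluster within cells, which makes the intervals too narrow as a guide to a second library.

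The ND library held 16817 deposited cells and 117999042 RNA UMIs, and the HFD library 17282 cells and 117773643 RNA UMIs. After the filters 13890 ND cells and 15214 HFD cells were kept, with a median of 4480 and 4075.5 UMIs a cell and a median mitochondrial share of 7.085% and 6.21%. The libraries shared 329 cell index values. Clustering of both libraries together, with the 10 genes kept out of the genes that drove it, gave 33 clusters. Markers placed 32 of them into 18 classes, written "X-like" because the names rest on rebuilt markers, and cluster 25 (led by Ms4a1, Vpreb3 and Cd79a) stayed unnamed as a class of its own. HSPC-like stands for haematopoietic stem and progenitor cell-like. Summed UMIs of the neutrophil transcripts S100a8 and S100a9 were 13410 counts per 1000000 (CPM) of all kept ND cells and 18700 CPM of all kept HFD cells. These sums include the neutrophil-like cells themselves, so they also carry the share of those cells and do not measure background. Platelet transcripts (Ppbp and Pf4) were 123.8 and 231.1 CPM.

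Levels are CPM, the UMIs of a gene scaled to all UMIs of that class and library, and a difference is the log2 ratio of HFD over ND with its 95% conditional binomial interval. Levels were compared across classes within a gene, not between genes. A gene in a class was called higher or lower when it had at least 20 UMIs over both libraries, a ratio of at least 1.5-fold and an interval that did not include 0 on the log2 scale. Of 190 combinations of gene and class, 158 had enough UMIs. The rule called 23 of the 158 higher in the HFD library (14.6%) and 9 lower (5.7%), beside 2.62% higher and 2.28% lower of 183089 combinations of any gene and class. The counts were unequal between the genes. Cd36 and Plin2 were called higher in 6 classes each, Fabp4 in 5, Lpl in 3, Fabp5 in 2 and Hilpda in 1, while Plin3, Vldlr, Dgat1 and Pnpla2 were called higher in none. Lpl was called lower in 3 classes, Fabp5 in 2, and Cd36, Fabp4, Dgat1 and Hilpda in 1 each.

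Of the 32 calls, 7 were kept under every alternative that recomputed the whole-class ratios at this size rule. For these 7 there were 11 alternatives in monocyte-like and macrophage-like cells and 12 in the other classes. The 7 were higher Cd36, Plin2 and Fabp4 in monocyte-like cells, higher Plin2 in macrophage-like, mature neutrophil-like and basophil or mast cell-like cells, and lower Fabp5 in macrophage-like cells. Ratios within single clusters were not counted among the alternatives. Of monocyte-like clusters with at least 20 UMIs, Cd36 was called in 0 of 2, Fabp4 in 1 of 2 and Plin2 in 2 of 3. Plin2 was called in 1 of 2 macrophage-like and 1 of 2 basophil or mast cell-like clusters, and Fabp5 in 2 of 2 macrophage-like ones. At a 2-fold rule 2 of the 7 were called, Fabp4 in monocyte-like cells and Plin2 in mature neutrophil-like cells. They all lie in myeloid classes.

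**Figure D1:**
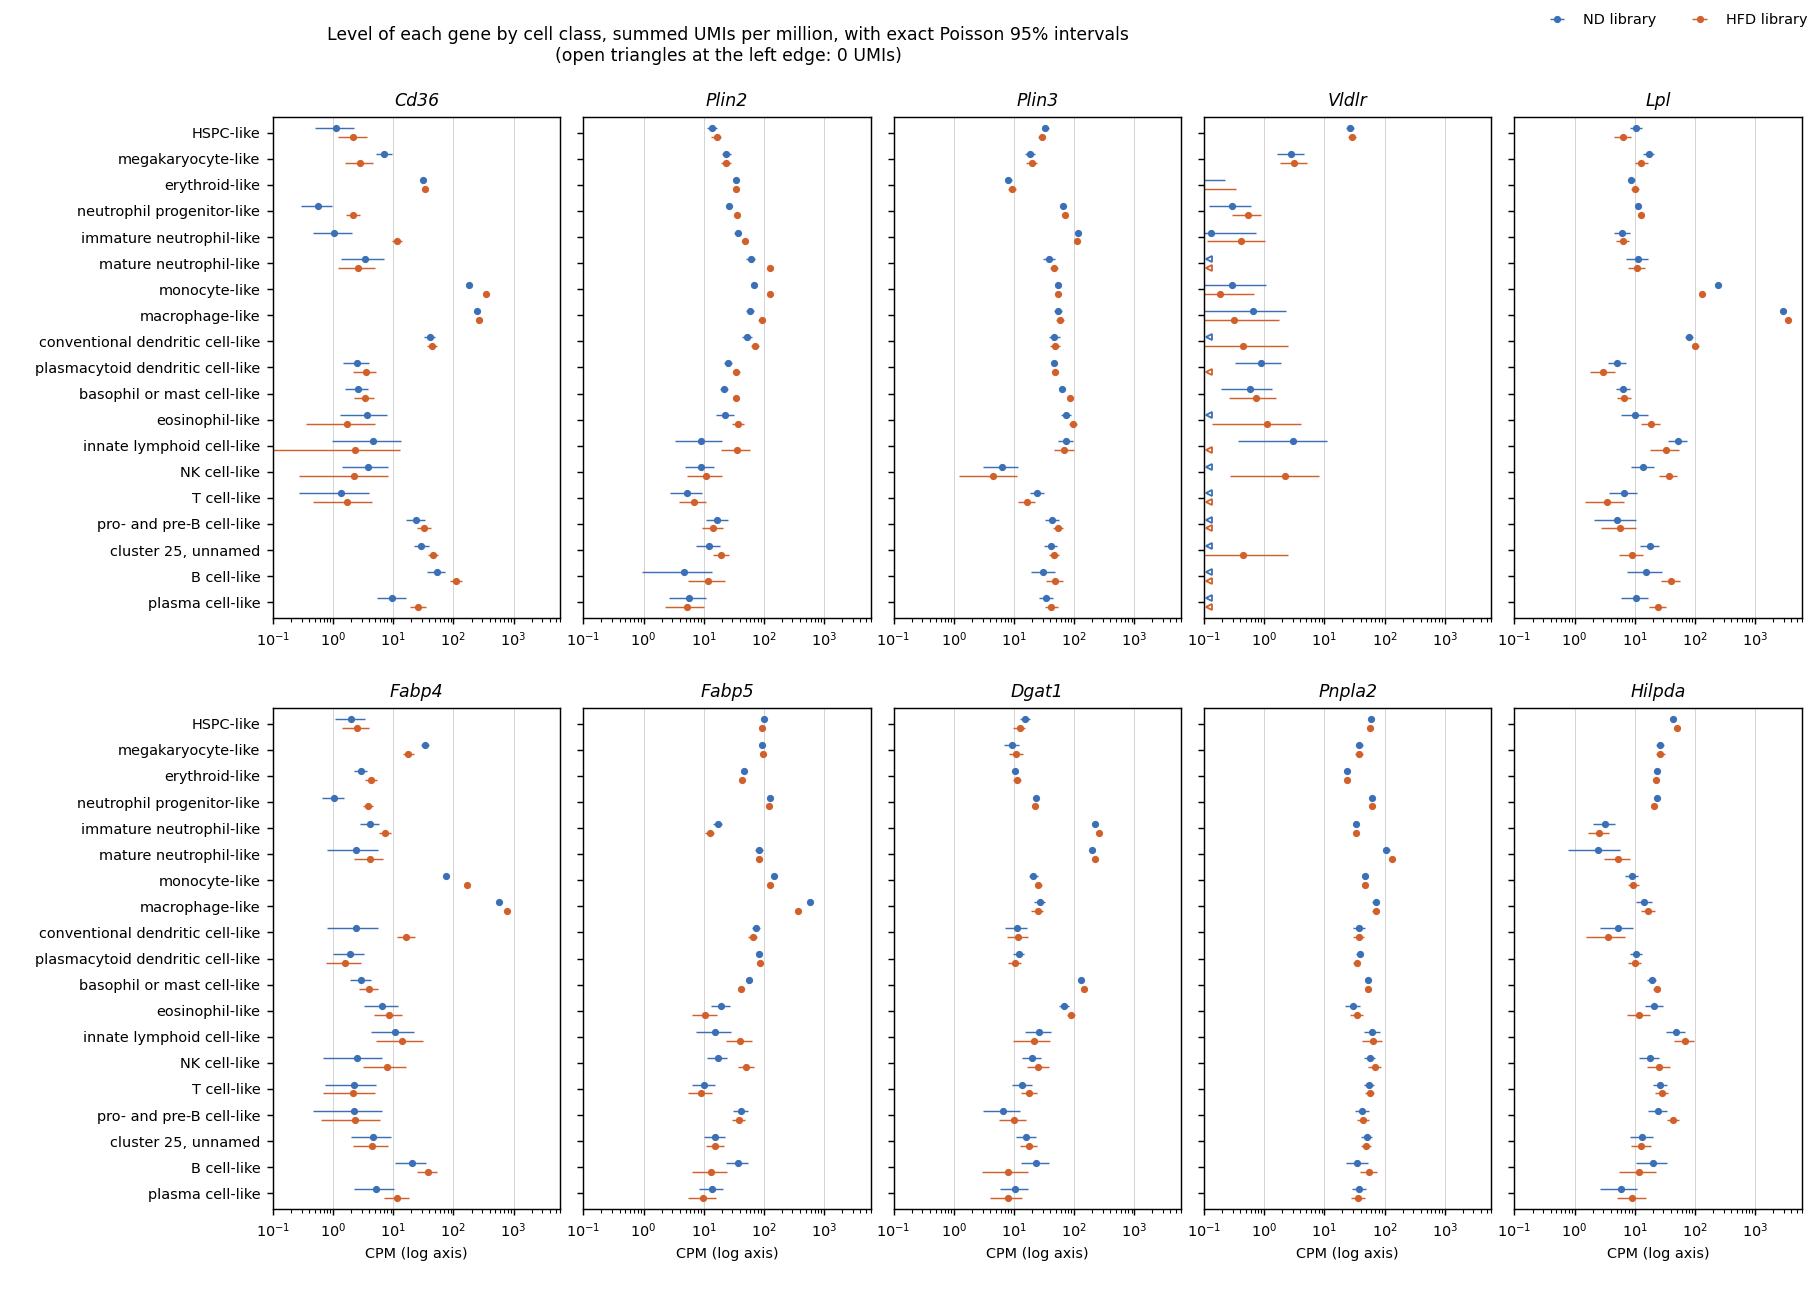
Level of each of the 10 genes in 19 cell classes, in CPM on a log axis, for the ND library (blue) and the HFD library (orange), with exact Poisson 95% intervals; open triangles at the left edge mark 0 UMIs. Lpl, Fabp4, Fabp5 and Cd36 peak in macrophage-like and monocyte-like cells, Dgat1 in neutrophil-like and basophil or mast cell-like cells, and Vldlr in HSPC-like cells, and Pnpla2 in mature neutrophil-like cells.

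**Figure D2:**
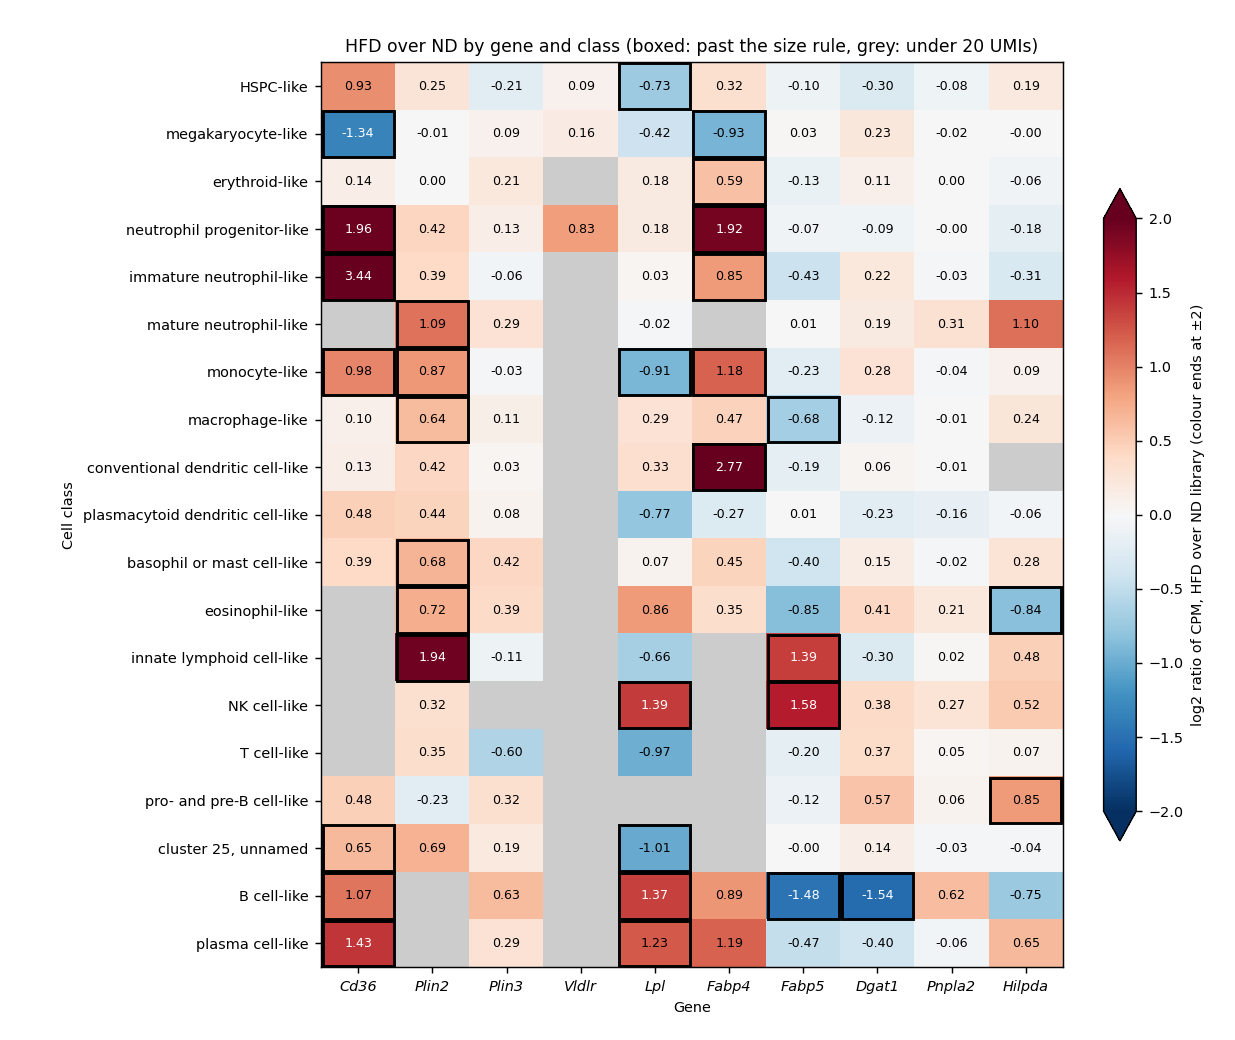
Log2 ratio of CPM, HFD over ND, for the 10 genes (columns) in 19 classes (rows), with the value printed in each cell; boxes mark ratios past the size rule and grey marks combinations under 20 UMIs. Plin2 was above 0 in 15 of its 17 measured classes and Cd36 in 13 of 14, and the Pnpla2 and Plin3 columns hold no box.

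Over all kept cells, 3 of the 10 genes were called higher in the HFD library, beside 2.73% of 15629 genes higher and 3.98% lower. Cd36, the scavenger receptor and fatty acid translocase, was at 28.3 CPM in ND and 52.6 CPM in HFD (3108 and 5825 UMIs), a log2 ratio of 0.89 (interval 0.83 to 0.96). Fabp4, the fatty acid binding protein of adipocytes and macrophages, was at 24.6 and 43.5 CPM (2702 and 4818 UMIs; 0.82, 0.75 to 0.89). Plin2, the droplet coat protein of most non-adipose cells, was at 30.7 and 46.6 CPM (3371 and 5160 UMIs; 0.60, 0.54 to 0.66). With every cell weighted alike, Cd36 (0.52) and Fabp4 (0.41) were not called and Fabp5 was called lower (-0.60). The HFD library was the higher one for all 3 called genes, and the other 7 genes had ratios between -0.12 (Fabp5) and 0.36 (Dgat1).

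The libraries also differed in their mix of classes: monocyte-like cells were 7.653% of ND cells and 11.8% of HFD cells, mature neutrophil-like cells 5.911% and 9.537%, and macrophage-like cells 12.3% and 9.965%. Splitting each log2 ratio into the part from the class mix and the part within classes gave 0.26 and 0.64 for Cd36, 0.17 and 0.65 for Fabp4, and 0.11 and 0.49 for Plin2. For Dgat1 the class mix part (0.21) was larger than the part within classes (0.15). The part within classes also holds shifts between the clusters of a class, so it is not a change of level alone. Cluster 27, which held most Cd36 and Fabp4 UMIs of the monocyte-like class, was 43.56% of those cells in ND and 57.38% in HFD. How much of the part within classes came from this shift was not tested. The source of the UMIs moved as well. Monocyte-like cells held 39.35% of Cd36 UMIs in ND and 64.82% in HFD, while erythroid-like cells held 24.68% and 9.614%. Likewise, monocyte-like cells held 18.65% of Fabp4 UMIs in ND and 37.26% in HFD.

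Cd36 was described first among the uptake genes. RefSeq gives 1 promoter window for it on GRCm38.p6, chr5:17835897-17836146 on the minus strand, 250 bases up to the transcription start, 43.2% G or C. In the GENCODE M21 annotation that window lies inside the Cd36 gene and overlaps none of its exons, so it belongs to an internal start. It is shown with that of Plin2 because both genes were higher in the HFD library in monocyte-like cells; capitals mark the motif GGGCGG, the core of GC boxes.

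Cd36: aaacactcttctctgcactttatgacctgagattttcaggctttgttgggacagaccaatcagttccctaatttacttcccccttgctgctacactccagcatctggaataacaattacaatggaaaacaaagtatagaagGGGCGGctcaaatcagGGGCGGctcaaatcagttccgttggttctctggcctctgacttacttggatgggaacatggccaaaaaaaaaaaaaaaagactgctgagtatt

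Plin2: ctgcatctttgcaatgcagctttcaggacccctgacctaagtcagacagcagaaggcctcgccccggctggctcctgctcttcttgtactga

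The Plin2 stretch is chr4:86670218-86670309 on the minus strand (GRCm38.p6, RefSeq), the outer 92 bases of its window, which lie beyond the gene's outermost RefSeq start. The motif GGGCGG starts 109 and 93 bases before the Cd36 start and is not in the Plin2 stretch. Promoter windows matched 6 of the 10 genes (Cd36, Hilpda, Plin2, Plin3, Pnpla2 and Vldlr, 8 windows). On either strand, AGGTCANAGGTCA, the direct repeat that PPAR and RXR pairs bind, was in none of them, beside 0.0335% of 32851 windows of the same length, and the looser AGGNCANAGGNCA was also in none (0.338% of all windows). ACGTG, the core of hypoxia response elements, was in 1 Hilpda window, 43 bases before the start (16.6% of all windows). GGGCGG was in windows of Cd36, Hilpda, Plin3, Pnpla2 and Vldlr (32.7% of all windows). These matches describe letters in short windows only.

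Cd36 mRNA was highest in macrophage-like and monocyte-like cells, and the order of the 2 classes differed between the libraries. In ND, macrophage-like cells were at 248 CPM and monocyte-like cells at 179.5 CPM. In HFD, monocyte-like cells were at 353 CPM and macrophage-like cells at 265 CPM. Within a library the intervals of the 2 classes did not overlap, nor did they overlap the next class, B cell-like cells (52.5 CPM in ND and 110.2 CPM in HFD).

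In monocyte-like cells the Cd36 log2 ratio was 0.98 (0.88 to 1.07; 1223 and 3776 UMIs), at percentile 98.5 of all genes measured in that class, where 2.81% of genes were called higher and 1.93% lower. In cells thinned to 1000 UMIs each (1051 of 1063 ND and 1771 of 1795 HFD cells, the rest being shallower), 22.55% of ND and 35.29% of HFD monocyte-like cells held a Cd36 UMI, and unthinned 35.1% and 50.03%. T cell-like cells, which should carry little Cd36, stood at 0.161% and 0.156% thinned; the median depth was 5017 and 4137 UMIs in monocyte-like cells and 3393.5 and 3336.5 in T cell-like cells.

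The 3 clusters of the monocyte-like class were very unlike in Cd36. Cluster 27, led by Ace and Nr4a1, genes of patrolling monocytes, was at 858 CPM in ND and 1123 CPM in HFD (0.39, 0.29 to 0.48). Cluster 15, led by Fn1, Vcan and Ccr2, was at 14.4 and 13.2 CPM (-0.13), and cluster 11, led by Fn1 and F13a1, held 2 and 13 UMIs. Of all monocyte-like cells, cluster 27 held 43.56% in ND and 57.38% in HFD (463 and 1030 cells). The class ratio of 0.98 was thus larger than the ratio within any cluster that held over 20 UMIs, and within cluster 27, where 3.26% of genes were called higher, Cd36 was short of the 1.5-fold rule. In macrophage-like cells the Cd36 ratio was 0.10 (-0.05 to 0.24; 770 and 839 UMIs), with clusters 22 (239 and 256 CPM, led by C1qc and C1qb) and 24 (271 and 282 CPM, led by Gdf15 and Mertk) close to each other.

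Erythroid-like cells, whose early stages are known to carry Cd36, were at 30.8 and 33.9 CPM (0.14). Within that class cluster 18, the shallowest (median 1292 and 2449 UMIs), was at 988 CPM in ND and 1028 CPM in HFD (334 and 280 UMIs), far above clusters 0 (14.6 and 13.9 CPM) and 1 (27.1 and 30.2 CPM). Cluster 18 also held macrophage transcripts. C1q UMIs were in 44.8% of its ND cells with Cd36 and 73.8% of those without, and in 48.6% and 55.9% of the HFD ones. Cd36 there was therefore not more frequent in the cells with C1q.

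Cd36 was called higher in B cell-like cells (1.07, 0.48 to 1.69; 34 and 83 UMIs; 2.91% of genes higher there), in cluster 25 (29.3 and 46.1 CPM, 0.65; 2.08%) and in plasma cell-like cells (9.69 and 26.1 CPM, 1.43, 15 and 40 UMIs; 3.76%). In cluster 30, which held most B cell-like cells, it was at 24.8 and 45.4 CPM and the interval included 0 (-0.06 to 1.87). The B cell-like class also took in cluster 29, with 8 and 14 cells and Nr4a1 and Ace among its top genes. From these few cells came 19 of 34 Cd36 UMIs of the class in ND and 52 of 83 in HFD, so its rank and its call rest on them. In megakaryocyte-like cells Cd36 was called lower in HFD, at 7.11 CPM in ND and 2.81 CPM in HFD (-1.34, -2.30 to -0.45; 40 and 15 UMIs; 2.16% of genes lower). There 1 ND cell held 10 of the 40 UMIs and 1 HFD cell 11 of the 15, and both carried UMIs of endothelial genes. The call was lost with the stricter filter, with doublets kept, with the members among the variable genes and in thinned cells.

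The largest Cd36 ratio was in immature neutrophil-like cells, at 1.05 CPM in ND and 11.4 CPM in HFD (3.44, 2.41 to 4.69; 8 and 112 UMIs; 2.37% of genes higher). Nearly all of it came from cluster 13, led by Fcnb, Chil3 and Camp, with 3 UMIs in ND and 101 in HFD; cluster 23 held 3 and 4 UMIs and cluster 26 held 2 and 7. In cluster 13, 2 of 282 ND cells and 24 of 375 HFD cells held a Cd36 UMI. Ace or Treml4, markers of patrolling monocytes, were in 20 of those 24 HFD cells (83.3%) and in 6.84% of the other HFD cells of the cluster. Summed Ace and Treml4 UMIs of cluster 13 were 2.89 CPM in ND and 41.3 CPM in HFD. Without cells that held Ace, Treml4 or C1q UMIs, an alternative chosen after seeing the data, the ratio in immature neutrophil-like cells was 2.53 (0.79 to 4.91) on 25 UMIs. Neutrophil progenitor-like cells were at 0.551 and 2.15 CPM (1.96, 13 and 57 UMIs; 1.03% of genes higher). Conventional dendritic cell-like cells were at 40.2 and 44.1 CPM and pro- and pre-B cell-like cells at 23.6 and 33.0 CPM, neither called. Every class not named so far was under 5 CPM in both libraries.

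Vldlr, the receptor for triglyceride-rich lipoproteins, was found mainly in HSPC-like cells. HSPC-like cells held 189 of its 231 ND UMIs and 185 of its 236 HFD UMIs, 81.82% and 78.39%. Their level was 26.8 CPM in ND and 28.6 CPM in HFD (0.09). Megakaryocyte-like cells came next at 2.84 and 3.18 CPM (16 and 17 UMIs), and their intervals did not reach those of the HSPC-like cells. Neutrophil progenitor-like cells held 7 and 14 UMIs and every other class at most 6 in a library. B cell-like, T cell-like, mature neutrophil-like, plasma cell-like and pro- and pre-B cell-like cells held 0 UMIs in both libraries, which allows up to 3 counts, between 0.867 CPM (mature neutrophil-like, HFD) and 4.64 CPM (B cell-like, ND). Vldlr could be compared in 3 classes only, and none was called.

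Lpl, the lipase that frees fatty acids from triglyceride, was above all a macrophage transcript. Macrophage-like cells held 76.06% of its ND and 81.03% of its HFD UMIs. They were at 2870 CPM in ND and 3500 CPM in HFD (8900 and 11065 UMIs), a ratio of 0.29 (0.25 to 0.33), short of 1.5-fold. Cluster 22, with 92.92% and 90.5% of the class, went from 2614 CPM in ND to 3334 CPM in HFD (0.35), and cluster 24 from 3480 to 3785 CPM (0.12). After thinning, 85.3% of ND and 86.1% of HFD macrophage-like cells held an Lpl UMI; only 1017 of 1709 ND and 925 of 1516 HFD cells reached 1000 UMIs, and unthinned the shares were 82.3% and 86.0%. T cell-like cells were at 0.483% and 0.156% thinned.

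In monocyte-like cells the direction was the opposite one. Lpl was at 244 CPM in ND and 129.6 CPM in HFD, a ratio of -0.91 (-1.02 to -0.81; 1664 and 1386 UMIs), at percentile 1.20 of all genes of the class. All 3 clusters were lower in HFD: cluster 11 at 118.7 and 74.8 CPM (-0.67), cluster 15 at 478 and 249 CPM (-0.94) and cluster 27 at 268 and 132 CPM (-1.02). The share of thinned cells with an Lpl UMI was 19.0% in ND and 9.09% in HFD (unthinned 39.3% and 24.1%). Summed C1q UMIs, a macrophage marker, were 44.3 CPM in ND and 45.6 CPM in HFD over the class. By cluster they were 33.97 and 13.93 CPM in cluster 11, 36.11 and 19.81 CPM in cluster 15 and 81.86 and 111.6 CPM in cluster 27, so they were lower in HFD in 2 clusters and higher in the other. Their part in the Lpl ratio was not tested. The Lpl call was lost at the 2-fold rule and at the coarser Leiden resolution of 0.5, where the ratio was -0.36.

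Outside these 2 classes Lpl was low, and macrophage transcripts were frequent in the cells that held it. Conventional dendritic cell-like cells were at 81.3 and 102.4 CPM (0.33), and C1q UMIs were in 11 of 22 ND and 29 of 39 HFD cells with Lpl, against 2.77% and 7.48% of those without. In ND the interval of these cells overlapped that of innate lymphoid cell-like cells (52.0 and 33.0 CPM). Lpl was called higher in NK cell-like (13.95 and 36.6 CPM, 1.39; 22 and 33 UMIs; 4.36% of genes higher), B cell-like (15.5 and 39.8 CPM, 1.37; 10 and 30 UMIs) and plasma cell-like cells (10.3 and 24.2 CPM, 1.23; 16 and 37 UMIs). It was called lower in HSPC-like cells (10.5 and 6.34 CPM, -0.73; 2.1% of genes lower) and in cluster 25 (17.8 and 8.86 CPM, -1.01; 2.23%). In NK cell-like cells 5 of 8 ND and 8 of 8 HFD cells with Lpl also held C1q, against 3.69% and 4.72% of the rest. Without cells that held Ace, Treml4 or C1q, the ratio was 0.14 in NK cell-like cells (5 UMIs), 1.39 in B cell-like cells (4 UMIs), -0.35 in plasma cell-like cells (4 UMIs), 0.16 in HSPC-like cells (32 UMIs) and 0.19 in cluster 25 (10 UMIs), and none was called. Cluster 29 held 3 and 15 of the 10 and 30 Lpl UMIs of the B cell-like class.

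Fabp4 and Fabp5, a pair of closely related cytosolic carriers of fatty acids, differed in opposite directions between the diets in macrophage-like cells. Fabp4 was at 567.5 CPM in ND and 784.5 CPM in HFD (1760 and 2480 UMIs; 0.47, 0.38 to 0.56), short of 1.5-fold, and was higher in cluster 22 (0.41) and cluster 24 (0.48) alike. Fabp5 was at 596.5 and 373.6 CPM (1850 and 1181 UMIs; -0.68, -0.78 to -0.57), was called lower, and lay at percentile 3.68 of all genes of the class, where 2.22% of genes were called lower and 3.58% higher. Cluster 22 was at 652 CPM in ND and 427 CPM in HFD (-0.61), and cluster 24 at 464 and 283 CPM (-0.71). The share of thinned macrophage-like cells with a UMI was 36.9% in ND and 48.1% in HFD for Fabp4, and 37.3% and 24.5% for Fabp5. Unthinned, the shares were 43.5% and 56.9% for Fabp4, and 45.5% and 33.2% for Fabp5. For T cell-like cells the thinned shares were 0.161% and 0.312% for Fabp4, and 0.966% and 0.780% for Fabp5.

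**Figure D3:**
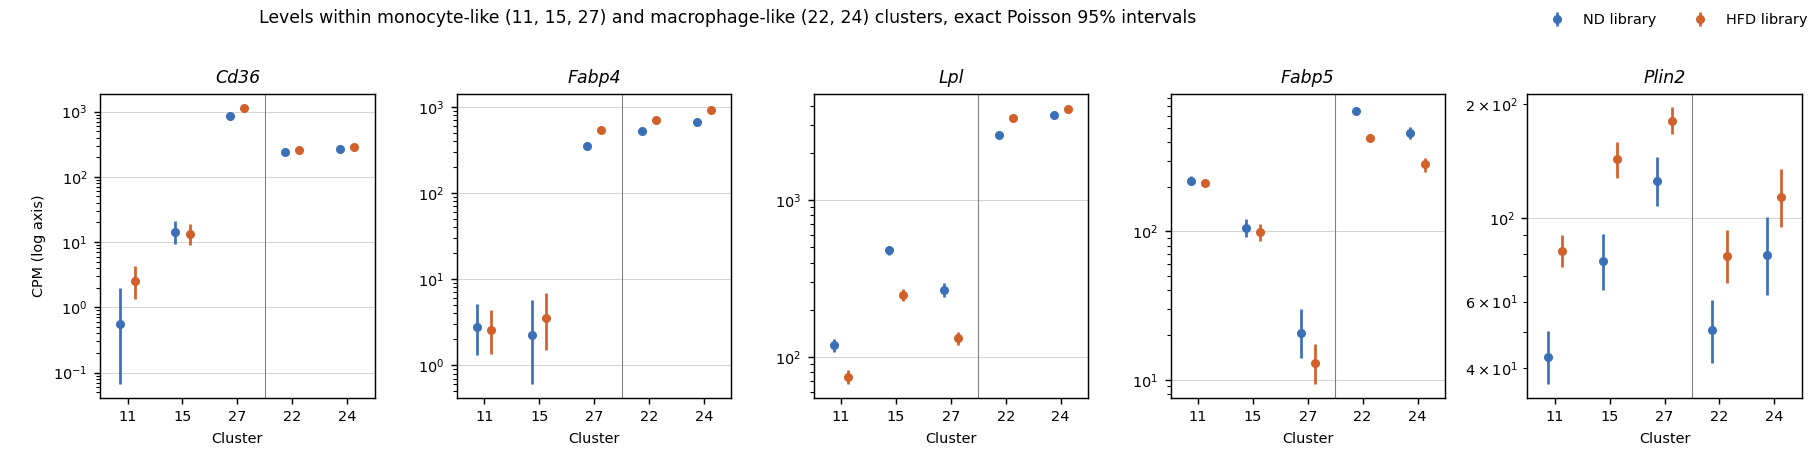
CPM of Cd36, Fabp4, Lpl, Fabp5 and Plin2 on log axes in monocyte-like clusters 11, 15 and 27 and macrophage-like clusters 22 and 24, for the ND library (blue) and the HFD library (orange), with exact Poisson 95% intervals. Plin2 was higher in HFD in all 5 clusters, Lpl lower in the 3 monocyte-like and higher in the 2 macrophage-like ones, and Cd36 and Fabp4 of the monocyte-like class lay in cluster 27.

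In monocyte-like cells Fabp4 was at 74.0 CPM in ND and 167.9 CPM in HFD (504 and 1795 UMIs), a ratio of 1.18 (1.04 to 1.33) at percentile 99. The thinned share of cells with a UMI was 11.7% and 23.3% (unthinned 24.8% and 40.5%). As with Cd36, nearly all UMIs were in cluster 27 (490 of 504 and 1774 of 1795), at 352 CPM in ND and 534 CPM in HFD (0.60, 0.46 to 0.75), past the rule within that cluster. Clusters 11 (2.76 and 2.55 CPM) and 15 (4 and 8 UMIs) held little. Fabp5 had the reverse distribution: cluster 11 was highest at 219.5 and 213.5 CPM, cluster 15 was at 105.5 and 98.6 CPM, and cluster 27 lowest at 20.8 and 12.9 CPM. Over the class Fabp5 was at 148.8 and 126.7 CPM (-0.23).

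Both carriers are known outside blood cells too, Fabp4 in adipocytes and endothelium. Over all kept cells the 14 adipocyte markers summed to 22.1 CPM in ND and 26.9 CPM in HFD, most of it Orm1 (1210 and 1887 UMIs), which neutrophils also express, and Car3 (860 and 693 UMIs). Adipoq held 29 and 49 UMIs, Lep 0 and 1, and Adrb3 0 in both. Megakaryocyte-like cells held 17 of the Adipoq UMIs in ND and 41 in HFD. The 15 endothelial markers were at 132 and 127 CPM, with Cdh5 at 335 and 350 UMIs. Most of the Cdh5 UMIs, 293 in ND and 318 in HFD, were in plasmacytoid dendritic cell-like cells. The 15 stromal markers were at 367 and 407 CPM, mostly Igfbp4, with Col1a1 at 350 and 104 UMIs and Dcn at 171 and 4. In monocyte-like cells the adipocyte sum was 0.587 and 1.78 CPM, the endothelial sum 56.5 and 60.8 CPM and the stromal sum 96.9 and 100.7 CPM. In macrophage-like cells these sums were 2.58 and 2.53, 206 and 235, and 199 and 190 CPM. The part of these cells in the Fabp4 levels was not tested.

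Fabp4 in megakaryocyte-like cells rested on a few cells. It was at 33.9 CPM in ND and 17.8 CPM in HFD (-0.93; 191 and 95 UMIs; 2.16% of genes lower). In cluster 2, 6 ND cells with at least 10 UMIs held 179 of 191 UMIs and 2 HFD cells held 74 of 92, and all 8 carried UMIs of the endothelial genes Cdh5, Stab2 or Tie1. The other cells of the cluster held 12 UMIs in ND and 18 in HFD.

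Fabp4 was also called higher in conventional dendritic cell-like cells (2.42 and 16.5 CPM, 2.77; 5 and 37 UMIs; 3.83% of genes higher), neutrophil progenitor-like cells (1.02 and 3.85 CPM, 1.92; 24 and 102 UMIs), immature neutrophil-like cells (4.08 and 7.34 CPM, 0.85) and erythroid-like cells (2.85 and 4.29 CPM, 0.59; 2.73%). In neutrophil progenitor-like cells 1 HFD cell held 67 of the UMIs, and without the top cell the ratio was 0.38. Without cells that held Ace, Treml4 or C1q, which were 16.0% of ND and 29.1% of HFD conventional dendritic cell-like cells, Fabp4 was left with 4 UMIs there, 18 in immature neutrophil-like cells (0.65) and 14 in erythroid-like cells (-0.70). B cell-like cells, at 20.1 and 37.2 CPM (0.89; 13 and 28 UMIs), were not called.

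**Figure D4:**
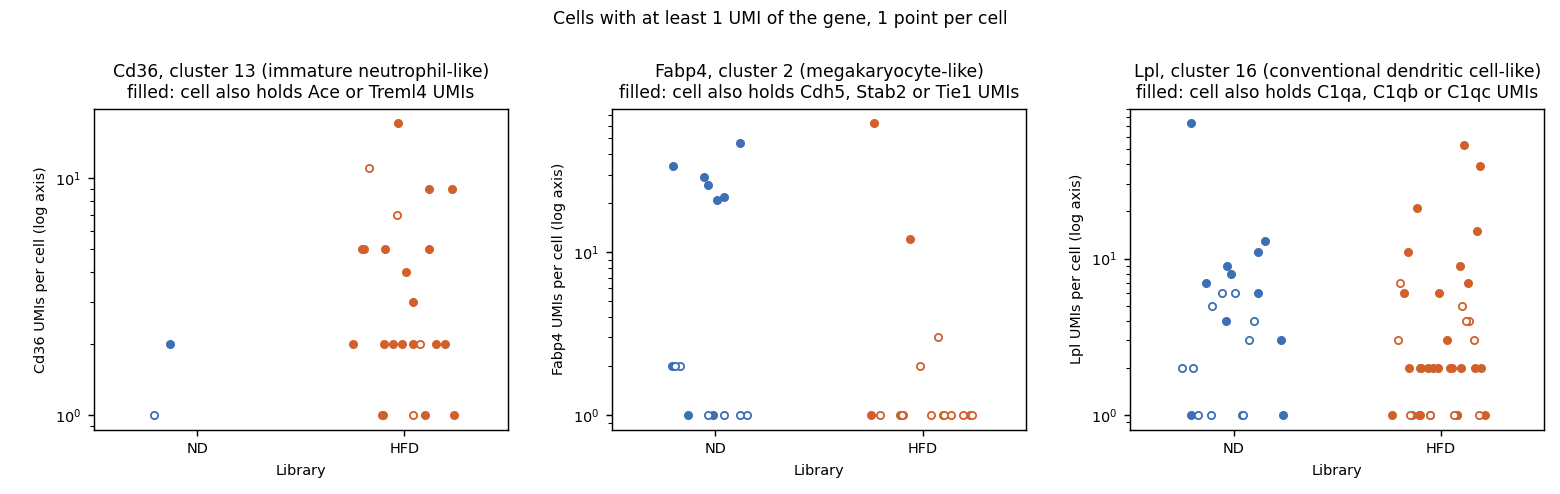
UMIs per cell, on a log axis, in every cell with at least 1 UMI of Cd36 in cluster 13, of Fabp4 in cluster 2 and of Lpl in cluster 16, for the ND library (blue) and the HFD library (orange); filled points are cells that also hold UMIs of Ace or Treml4, of Cdh5, Stab2 or Tie1, or of C1qa, C1qb or C1qc. In cluster 13 most of the 24 HFD cells are filled, in cluster 2 the 6 highest ND and 2 highest HFD cells are filled, and in cluster 16 the highest cells of both libraries are filled.

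Fabp5 was broadly present elsewhere. Neutrophil progenitor-like cells were at 128.9 CPM in ND and 123.2 CPM in HFD, HSPC-like cells at 100.3 and 93.5, megakaryocyte-like cells at 94.9 and 96.7, plasmacytoid dendritic cell-like cells at 84.1 and 84.9, and mature neutrophil-like cells at 82.6 and 83.2. From HSPC-like cells down, the intervals of these neighbours overlapped. Within the neutrophil progenitor-like class, cluster 4 was at 201 and 193 CPM and cluster 8 at 32.3 and 26.6 CPM. Fabp5 was called higher in NK cell-like cells (17.1 and 51.1 CPM, 1.58, 0.86 to 2.32; 27 and 46 UMIs; 4.36% of genes higher), and this ratio was 1.68 without the cells that held Ace, Treml4 or C1q. It was also called higher in innate lymphoid cell-like cells (15.3 and 40.0 CPM, 1.39; 10 and 17 UMIs; 3.32%), and lower in B cell-like cells (37.1 and 13.3 CPM, -1.48; 24 and 10 UMIs; 2.66% of genes lower). Without the cells that held Ace, Treml4 or C1q, these ratios were 1.48 on 17 UMIs and 0.54 on 8 UMIs, both under the minimum. In basophil or mast cell-like cells Fabp5 was at 55.9 and 42.4 CPM (-0.40), not called.

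Dgat1, the last step of triglyceride synthesis, marked granulocytes. It was at 223 CPM in ND and 260 CPM in HFD in immature neutrophil-like cells (0.22), 198 and 225 CPM in mature neutrophil-like cells (0.19), 131.0 and 145.8 CPM in basophil or mast cell-like cells (0.15) and 67.4 and 89.3 CPM in eosinophil-like cells (0.41). No other class was above 27 CPM. The first 2 overlapped in ND and not in HFD. The gene was at a low level in progenitors (clusters 4 and 8 at 19.4 and 29.0 CPM in ND) and at 163 CPM in cluster 13, 266 in cluster 23 and 263 in cluster 26 of the immature neutrophil-like class in ND. A like step lay within the basophils, where the protease-rich cluster 9 (led by Mcpt8 and Prss34) was at 63.2 and 72.8 CPM and the chemokine-rich cluster 10 (led by Ccl4 and Ccl3) at 281 CPM in HFD (0.17; 782 and 823 UMIs). It also lay within the eosinophils, where cluster 12 was at 31.9 and 45.8 CPM and cluster 32 at 346 and 329 CPM. The only call was in B cell-like cells (23.2 and 7.97 CPM, -1.54; 15 and 6 UMIs), and it was kept in 3 of 12 alternatives.

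Plin2, which coats and stabilises droplets, was higher in HFD over a wide range of classes. Its log2 ratio was above 0 in 15 of 17 measured classes, with a median log2 ratio of 0.42 over them. In ND it was highest in monocyte-like (68.5 CPM), mature neutrophil-like (60.2), macrophage-like (59.0) and conventional dendritic cell-like cells (53.3), whose intervals each overlapped the next. In HFD mature neutrophil-like (128.3 CPM) and monocyte-like cells (125.5) overlapped each other and stood above macrophage-like (91.7) and conventional dendritic cell-like cells (71.3).

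The 6 calls were all higher in HFD. Mature neutrophil-like cells had a ratio of 1.09 (0.80 to 1.39; 124 and 444 UMIs), at percentile 98.7 of that class, where 1.78% of genes were called higher and 4.42% lower. Monocyte-like cells had 0.87 (0.72 to 1.03; 467 and 1342 UMIs), at percentile 97.9. Basophil or mast cell-like cells were at 21.9 and 35.1 CPM (0.68, 0.41 to 0.95; 189 and 293 UMIs; 1.7% of genes higher) and macrophage-like cells had 0.64 (0.36 to 0.91; 183 and 290 UMIs). Eosinophil-like cells were at 22.9 and 37.6 CPM (0.72, 0.12 to 1.33; 38 and 67 UMIs; 3.09%) and innate lymphoid cell-like cells at 9.18 and 35.3 CPM (1.94; 6 and 15 UMIs), a call that was lost without the cell with the most Plin2 UMIs and in thinned cells. The share of thinned cells with a Plin2 UMI was 4.88% in ND and 12.2% in HFD for mature neutrophil-like cells, 9.13% and 13.8% for monocyte-like cells and 5.02% and 8.32% for macrophage-like cells. Unthinned, these shares were 13.5% and 24.9%, 33.6% and 46.3%, and 8.66% and 14.8%. T cell-like cells were at 0.483% and 0.156% thinned.

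Neutrophil transcripts also differed between the libraries in these classes. Summed S100a8 and S100a9 UMIs were 448 CPM in ND and 759 CPM in HFD in monocyte-like cells, 294 and 1026 CPM in macrophage-like cells, 268.0 and 416.9 CPM in basophil or mast cell-like cells and 679.6 and 2725 CPM in eosinophil-like cells. Their part in the Plin2 ratios was not tested.

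Within classes, the Plin2 ratio was above 0 in each cluster of the monocyte-like, macrophage-like and basophil or mast cell-like classes, though not past the rule in each. It was 0.94 in cluster 11 (42.8 and 81.8 CPM), 0.90 in cluster 15 (76.7 and 142.7 CPM) and 0.53 in cluster 27 (124.9 and 180.8 CPM) of the monocyte-like class. It was 0.65 in cluster 22 (50.3 and 79.2 CPM) and 0.51 in cluster 24 (79.7 and 113.2 CPM) of the macrophage-like class. In the basophil or mast cell-like class the difference was in cluster 10, at 33.3 and 66.6 CPM (1.00, 0.65 to 1.36; 2.64% of genes higher), with cluster 9 at 15.5 and 18.1 CPM (0.22). Immature neutrophil-like cells, at 36.7 and 48.1 CPM (0.39, 0.18 to 0.61), and neutrophil progenitor-like cells, at 26.3 and 35.2 CPM (0.42, 0.28 to 0.57), were short of 1.5-fold with intervals above 0. Erythroid-like cells were at 34.8 and 34.9 CPM (0.00) and megakaryocyte-like cells at 23.98 and 23.8 CPM (-0.01), while the pro- and pre-B cell-like class had -0.23. B cell-like cells (3 and 9 UMIs) and plasma cell-like cells (9 and 8 UMIs) were under the minimum.

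**Figure D5:**
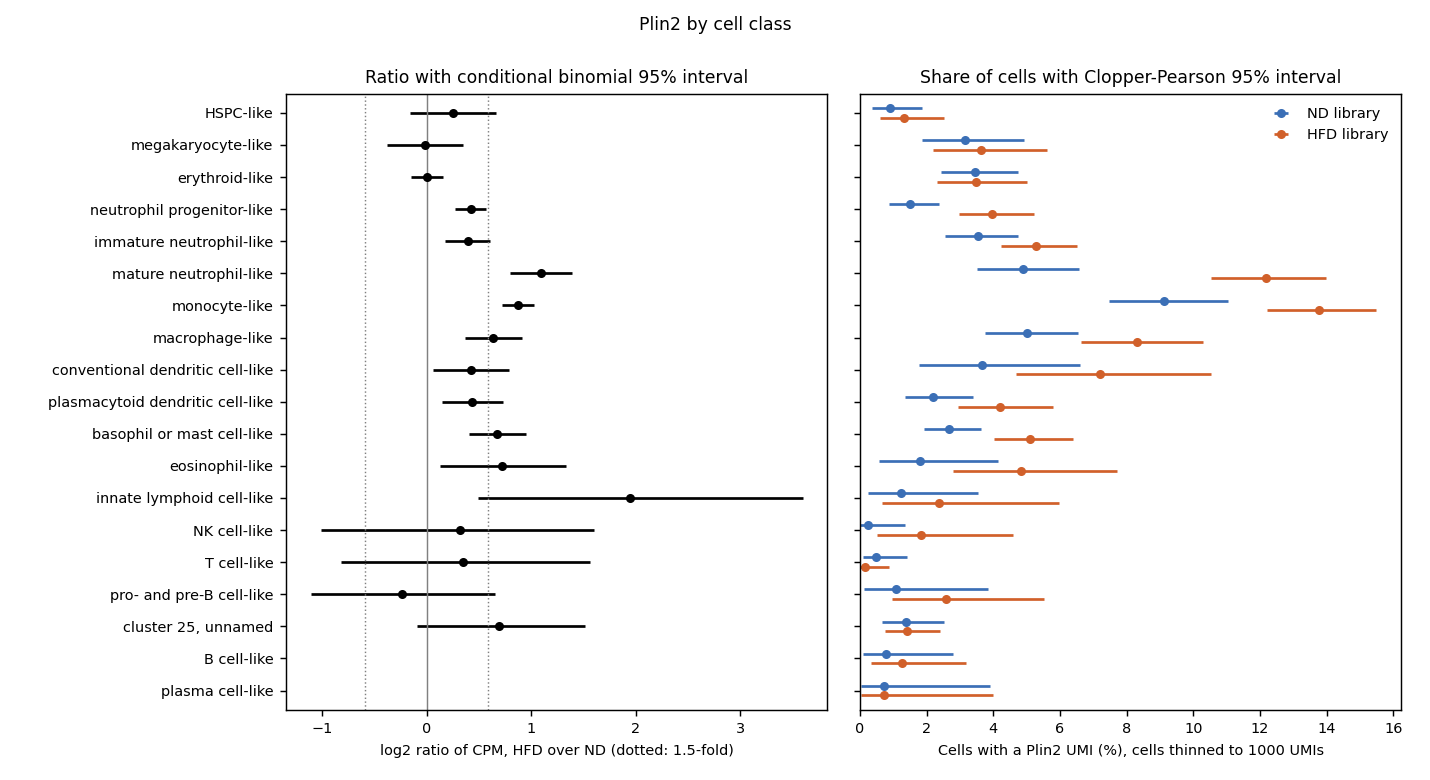
Left, log2 ratio of Plin2 CPM, HFD over ND, by class with conditional binomial 95% intervals and dotted lines at 1.5-fold; right, percent of cells with a Plin2 UMI after thinning to 1000 UMIs, ND in blue and HFD in orange, with Clopper-Pearson 95% intervals. Mature neutrophil-like cells (1.09) and monocyte-like cells (0.87) stand to the right of the dotted line, and erythroid-like (0.00) and megakaryocyte-like (-0.01) cells at 0.

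Plin3, a perilipin that also binds endosomal cargo and is present without droplets, was called in no class. It was highest in immature neutrophil-like cells (116 CPM in ND and 112 CPM in HFD) and lowest in erythroid-like (8.08 and 9.37 CPM) and NK cell-like cells (6.34 and 4.44 CPM). Eosinophil-like cells were at 74.0 and 96.6 CPM, neutrophil progenitor-like cells at 65.1 and 71.2, macrophage-like cells at 54.2 and 58.5 and monocyte-like cells at 54.0 and 53.0. Its median log2 ratio over 18 classes was 0.12. In basophil or mast cell-like cells it was at 62.7 and 83.8 CPM (0.42), with cluster 10 at 61.7 and 100.4 CPM (0.70, 0.44 to 0.97), past the rule within the cluster, and cluster 9 at 63.2 and 74.8 CPM. Cluster 10 was thus the 1 basophil cluster in which both perilipins were higher in HFD by the rule.

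Pnpla2, which encodes the lipase that opens droplets, was even between the libraries. It was measured in all 19 classes and called in none, with a median log2 ratio of -0.01 and a range of -0.16 to 0.62. Mature neutrophil-like cells were highest at 106.8 CPM in ND and 132.3 CPM in HFD (0.31), above macrophage-like cells (72.2 and 71.8 CPM) in both libraries without overlap. Erythroid-like cells were lowest, at 23.9 CPM in both.

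Hilpda, the small inhibitor of that lipase, was led by innate lymphoid cell-like cells (49.0 CPM in ND and 68.3 CPM in HFD) and HSPC-like cells (44.1 and 50.4 CPM, 0.19), which overlapped each other. T cell-like cells were at 26.7 and 28.1 CPM and megakaryocyte-like cells at 26.6 CPM in both. The gene was called higher in pro- and pre-B cell-like cells, at 24.4 and 43.9 CPM (0.85, 0.24 to 1.49; 33 and 76 UMIs; 2.53% of genes higher). Eosinophil-like cells were called lower, at 21.1 and 11.8 CPM (-0.84; 35 and 21 UMIs; 2.83% of genes lower). Mature neutrophil-like cells held 5 and 18 UMIs. Hilpda and Plin2 therefore had different leading classes: in mature neutrophil-like cells Plin2 was among the highest of all classes and Hilpda among the lowest.

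For each of the 10 genes the 3 genes most like it in level were found from Pearson's r of log2(CPM + 10) over 38 points, 19 classes in each of 2 libraries, among 9754 genes. These r describe shared distribution over classes, and the points share libraries and depth. Tmem106a (0.96) and Fcgr1 (0.96) were among the 3 genes most like Lpl, and Itgb5 (0.91) and Dram2 (0.91) among those most like Fabp4. Cd36 was most like Lilra5 (0.88), Gngt2 (0.87) and Clec4a1 (0.87). Fcgr1 encodes a high-affinity Fc receptor of monocytes and macrophages. Dgat1 was most like Klf5 (0.93), Fam160a2 (0.91) and Mxd1 (0.91), Vldlr most like Hmga2 (0.94), Stxbp4 (0.91) and Il1r1 (0.90), and Plin2 most like Cyb5r1 (0.86), Atp6v1b2 (0.83) and Lrrc25 (0.83). For Hilpda the closest were Tmem201 (0.85), Zc3h7b (0.85) and Ankrd17 (0.84), and for Fabp5 they were Map7d3 (0.82), Snx10 (0.81) and Arl8b (0.79). The weakest likeness was that of Plin3 (Adssl1, 0.79) and Pnpla2 (Mov10, 0.75).

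The rest of the lipid pathway was read from 8 lists of 132 genes in the 6 classes with the most cells. In monocyte-like cells, 1 of 12 tested uptake genes was called higher (the transporter Slc27a1, 2.64 and 7.02 CPM, 1.41). Of 11 genes of triglyceride and cholesterol ester synthesis 2 were higher, Agpat4 (103.0 and 167.6 CPM, 0.70) and Dgat2 (3.67 and 6.17 CPM, 0.75). Of 8 lipolysis genes 2 were higher, among them G0s2, an inhibitor of adipose triglyceride lipase (9.69 and 20.4 CPM, 1.07). None of 8 coat genes was called, and 1 of 7 acyl-CoA activation genes, which are synthetases and acyl-CoA binding proteins, was lower (Acsl3, -0.92). Of 13 PPAR targets outside the 10 genes, 2 were higher, Acot1 (5.58 and 12.5 CPM, 1.17) and Slc25a20 (22.5 and 39.7 CPM, 0.82), and Acot2 was lower (-0.65). Of 23 hypoxia genes 2 were higher, Egln3 (1.01) and Pfkfb3 (15.1 and 28.9 CPM, 0.94). The median log2 ratio was 0.13 for uptake, 0.19 for synthesis, 0.37 for lipolysis, 0.26 for PPAR targets and 0.18 for hypoxia genes, beside -0.0015 for all genes of the class.

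In macrophage-like cells 2 of 10 uptake genes were higher, the scavenger receptor Msr1 (13.5 and 27.8 CPM, 1.04) and the Lpl inhibitor Angptl4 (8.06 and 13.9 CPM, 0.79). Of 10 synthesis genes 3 were higher and of 16 PPAR targets 3 were higher, namely Acot1 (34.5 and 62.0 CPM, 0.85), Angptl4 and Acadvl (0.61). The list medians were 0.35 for uptake and 0.28 for PPAR targets, beside 0.025 for all genes of the class. Of 5 lipolysis genes 1 was higher, and no gene of the coat, hypoxia, acyl-CoA activation or PPAR and partner regulator lists was called.

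In mature neutrophil-like cells the genes called beside Plin2 were mainly PPAR targets of fatty acid oxidation, 4 of 13 higher and 1 lower, with a list median of 0.04 beside -0.0579 for all genes of the class. Acot1, a cytosolic acyl-CoA thioesterase, was at 27.7 CPM in ND and 197.0 CPM in HFD (2.83). Cpt1a, the carnitine palmitoyltransferase that admits fatty acids to mitochondria, was at 84.5 and 170.8 CPM, and Slc25a20, the carnitine carrier, at 21.4 and 45.7 CPM (1.10). Acot2 had 0.84. None of 4 uptake, 6 coat and 8 lipolysis genes was called, 1 of 9 synthesis genes was higher (Agpat5, 0.66), and of 22 hypoxia genes 1 was higher and 2 lower (Slc2a1, -0.63, and Egln1, -0.59). Immature neutrophil-like cells had 3 of 13 PPAR targets higher, Acot1 (17.6 and 57.1 CPM, 1.70), Cpt1a (76.8 and 136.3 CPM, 0.83) and Slc25a20 (0.61), along with Apoe (25.4 and 42.5 CPM, 0.75). Of 22 hypoxia genes 1 was lower there, the glucose transporter Slc2a1 (-0.76).

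Basophil or mast cell-like cells had 2 of 6 lipolysis genes higher, Mgll (1.15) and Ces2g (1.09), and 1 of 15 PPAR targets, Acot1 (1.63 and 8.50 CPM, 2.39). Agpat4 (0.93) was also higher there. Neutrophil progenitor-like cells had Ces2g (0.65) and Acot1 (15.8 and 30.6 CPM, 0.95) higher and no other gene of these lists called. Acot1 was the 1 gene of the lists that was called higher in all 6 classes, and Plin2 was called higher in 4 of the 6, the classes other than immature neutrophil-like and neutrophil progenitor-like cells. Members and lists were chosen with results of these data in view, so these counts describe the 2 libraries and are no independent evidence.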

How the data were processed

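The deposited values are counts of UMIs for each gene in each cell, corrected by RSEC. Per the file headers, they were produced by version 1.9.1 of the BD WTA Rhapsody Analysis Pipeline. The genome build is not given in the sources used here. The tables also hold 5 antibody tags, not analysed here. Genes were matched by symbol: 20478 of 24014 symbols were in both tables, and a symbol in 1 table only was taken as 0 in the other.

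A cell was kept with 200 genes or more and a mitochondrial share up to 25% (2515 ND and 1632 HFD cells failed), and Scrublet doublets, called per library at an expected rate of 5%, were removed (412 and 436). Clustering used scanpy 1.11.5 under Python 3.11.15 with numpy 2.4.6, scipy 1.17.1, pandas 2.3.3, scikit-learn 1.9.0, igraph 0.11.9 and matplotlib 3.10.9. Cells were scaled to 10000 UMIs, and 2000 variable genes outside the members and lists, 30 components and 15 neighbours were used for clustering (Leiden, resolution 1.0). A cluster took the class with the most of the marker genes among its top 50 genes by fold (pseudocount 10 CPM, detection in 10% or more of the cluster), given at least 3 markers and top 10 genes that did not lean to another class. Classes needed at least 100 cells in each library.

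Summed counts were compared per class with exact Poisson intervals for levels, conditional binomial intervals for ratios and Clopper-Pearson intervals for shares. Counts for 10872 genes of the monocyte-like class were simulated as independent Poisson sums, with 200 genes changed. The size rule recovered 94.0% of genes made 2-fold higher and 89.0% of those made 2-fold lower, and called 0.778% of unchanged ones. The simulation held no clustering of UMIs within cells, so it does not give the error rate in these libraries. All 10 members are named. From the 8 lists, up to 4 genes per list past the size rule with at least 50 UMIs are named in each of the 6 classes with the most cells, and likeness used genes with at least 1000 UMIs. The members and lists were chosen with earlier results of these data known. Alternatives covered the filters, doublets, resolution, variable genes, scaling, thinning and size rule; others were added after seeing the data. Some results for genes of the lists and of the likeness ranking are not reported here.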

Additional observations from a re-analysis of the deposited data

Results flagged for a closer look

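For 5 genes the called ratios lay on opposite sides of 0 in different classes. Each is a difference between 1 library per diet, and none of the differences between classes was tested. Cd36 had a log2 ratio of 3.44 in immature neutrophil-like cells and -1.34 in megakaryocyte-like cells. For Lpl the values were 1.39 in NK cell-like cells and -1.01 in cluster 25, and for Fabp4 they were 2.77 in conventional dendritic cell-like cells and -0.93 in megakaryocyte-like cells. Fabp5 had 1.58 in NK cell-like cells and -1.48 in B cell-like cells. Hilpda had 0.85 in pro- and pre-B cell-like cells and -0.84 in eosinophil-like cells. The Fabp4 value in megakaryocyte-like cells rests on 191 and 95 UMIs and the Cd36 value in immature neutrophil-like cells on 8 and 112, and every other of these values on at most 76 UMIs in either library.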

How the results depend on the processing

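No paired analysis was possible because each diet had 1 library, and no replicate could be left out. The number of combinations called higher, 23, was 10 in cells thinned to 1000 UMIs, 14 with a minimum of 100 UMIs, 14 at 2-fold and 15 without cells that held Ace, Treml4 or C1q UMIs outside the monocyte-like and macrophage-like classes. The number called lower, 9, was 4 with a minimum of 100 UMIs, 4 at 2-fold and 15 with no condition on the interval. Over all kept cells the stricter filter gave log2 ratios of 0.99 for Cd36 and 1.00 for Fabp4. Weighting every cell alike gave 0.52 for Cd36, 0.87 for Plin2, 0.16 for Plin3, -0.0009 for Lpl, 0.41 for Fabp4 and -0.60 for Fabp5, so that Cd36 and Fabp4 were no longer called and Fabp5 was called lower. Thinning gave 1.04 for Plin2, -0.058 for Lpl, 0.61 for Fabp4, -0.51 for Fabp5 and 0.15 for Hilpda. Without monocyte-like and macrophage-like cells, an alternative added after seeing the data, the ratios were 0.16 for Cd36, 0.42 for Plin2, 0.13 for Lpl, 0.35 for Fabp4 and -0.039 for Fabp5, and neither then nor at 2-fold was any of the 10 genes called.

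Signs reversed in 16 cases. Fabp4 in megakaryocyte-like cells was 1.07 with the stricter filter, 1.25 with doublets kept and 0.64 with the members among the variable genes, which also gave -0.13 for Fabp4 in neutrophil progenitor-like cells. Lpl in B cell-like cells was -0.0072 at resolution 2.0. Thinning gave 0.066 for Hilpda in eosinophil-like cells, -0.72 for Cd36 in neutrophil progenitor-like cells, and -0.54 for Cd36 and -1.54 for Lpl in plasma cell-like cells. Without cells that held Ace, Treml4 or C1q, the ratios were 0.54 for Fabp5 in B cell-like cells, -0.70 for Fabp4 in erythroid-like cells and, for Lpl, 0.16 in HSPC-like cells, -0.35 in plasma cell-like cells and 0.19 in cluster 25. Within monocyte-like clusters, Fabp4 was -0.11 in cluster 11 and Cd36 -0.13 in cluster 15. The causes were not tested. Rebuilt clusterings gave no value for cluster 25. In all, 2565 values stayed within the main counting interval, or within 1.5 times the main count, and 202 did not; staying within it does not mean that a call was kept. In thinned cells 9 of the 32 calls remained, and many of the lost ones were under the minimum of 20 UMIs there. At 2-fold 18 of the 32 remained, and 20 remained without the cell with the most UMIs. That cell ended the calls for Cd36 and Lpl in plasma cell-like cells, Cd36 in cluster 25, Dgat1, Fabp5 and Lpl in B cell-like cells, Fabp4 in neutrophil progenitor-like cells, Fabp5 and Plin2 in innate lymphoid cell-like cells, Hilpda in eosinophil-like cells, and Lpl in HSPC-like and NK cell-like cells.

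The ranges that follow are for whole classes across the alternatives at the same size rule and leave out the ratios within single clusters. In monocyte-like cells the log2 ratio ranged from 0.81 to 1.31 for Cd36, from 1.00 to 1.52 for Fabp4, from 0.67 to 0.92 for Plin2 and from -1.25 to -0.36 for Lpl. Plin2 ranged from 1.07 to 1.38 in mature neutrophil-like, from 0.62 to 0.81 in macrophage-like and from 0.63 to 1.01 in basophil or mast cell-like cells, and Fabp5 from -0.77 to -0.62 in macrophage-like cells. Diet and library cannot be told apart.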
